A study of Caenorhabditis elegans with 12 samples.

Results

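The 10 genes described here, mlt-10, mlt-11, nas-36, nas-37, noah-1, noah-2, fbn-1, bli-5, nekl-2 and nekl-3, take part in molting and in building the apical extracellular matrix of Caenorhabditis elegans. They were chosen by their WormBase symbols, as proteases, protease inhibitors, matrix proteins and kinases of these processes. This rule uses no measured value, but the genes were chosen with earlier results of these data known. They are 10 of the 46748 genes in the count table, and all 10 had enough reads to be among the 14511 genes tested.

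A nematode molts between larval stages by building a new cuticle under the old one, loosening the old one with secreted proteases and crawling out of it. Before each new cuticle, and in the embryo, the epidermis lays down a transient apical matrix of zona pellucida domain proteins and other large secreted proteins that shapes the animal and anchors it to its cuticle. Many of these genes are transcribed in waves that recur with each molt, and an adult does not molt again. The embryos that an adult hermaphrodite carries build such a matrix too.

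Whole worms were collected as day-1 adults, and their poly(A) RNA was sequenced in 12 libraries, 4 for each of 3 genotypes. Worms labelled circ-crh-1(syb385), strain VDL786, carry a CRISPR deletion in an intron of crh-1 that takes away a sequence needed to form circular RNAs from this gene. Worms labelled crh-1(n3315), strain MT9973, are null for CREB, the transcription factor that crh-1 encodes, and the reference was the wild-type strain N2. Each mutant was thus represented by 1 allele in 1 strain. The questions asked of the genes here are how each mutant differed from wild type and how the mutants differed from each other. All animals were synchronized by hypochlorite treatment and grown on E. coli OP50 at 20°C, and the methods place fourth-stage larvae on plates with FUdR, which blocks DNA synthesis and so stops progeny, unless stated otherwise. The labels name no FUdR, so whether it was present in these cultures is not settled.

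Libraries held between 16348586 and 25369267 counts. The first principal component held 37.4% of the variance of log2 normalized counts and separated the genotypes. On the second, with 17.6%, wild type replicate 3 (-44.4) lay with the circ-crh-1(syb385) libraries (-43.3 to -24.1) and apart from the other wild-type libraries (12.9 to 43.7). The crh-1 gene itself averaged 44.8 ± 1.41 CPM (counts per 1e+06 counts of a library) in circ-crh-1(syb385), 50.1 ± 2.41 in crh-1(n3315) and 42.4 ± 4.06 in wild type (SD, n = 4 each), so its count checked neither mutant label. Since the RNA came from whole worms, fewer cells of a type and less RNA per cell cannot be told apart in any value below.

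Levels are given as CPM after TMM normalization, a scaling that evens out differences in depth and composition between libraries, and as CPM per kilobase of exon where genes are set against each other. In every genotype the transcripts of both NOAH proteins stood highest per kilobase. In circ-crh-1(syb385), noah-2 averaged 64.6 and noah-1 51.5 CPM per kb, in crh-1(n3315) 35.1 and 31.7, and in wild type 110.7 and 85.8. The other members of moderate level, mlt-11, fbn-1, nas-37, mlt-10, nekl-2 and nekl-3, lay between 5.21 and 12.04 CPM per kb in circ-crh-1(syb385), between 3.85 and 10.6 in crh-1(n3315) and between 8.46 and 24.04 in wild type. At the bottom, bli-5 and nas-36 did not exceed a mean of 1.04 CPM per kb in any genotype. In wild type, the libraries of neighbours in this order overlapped except between noah-1 and mlt-11 and between nekl-2 and bli-5.

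**Figure D1:**
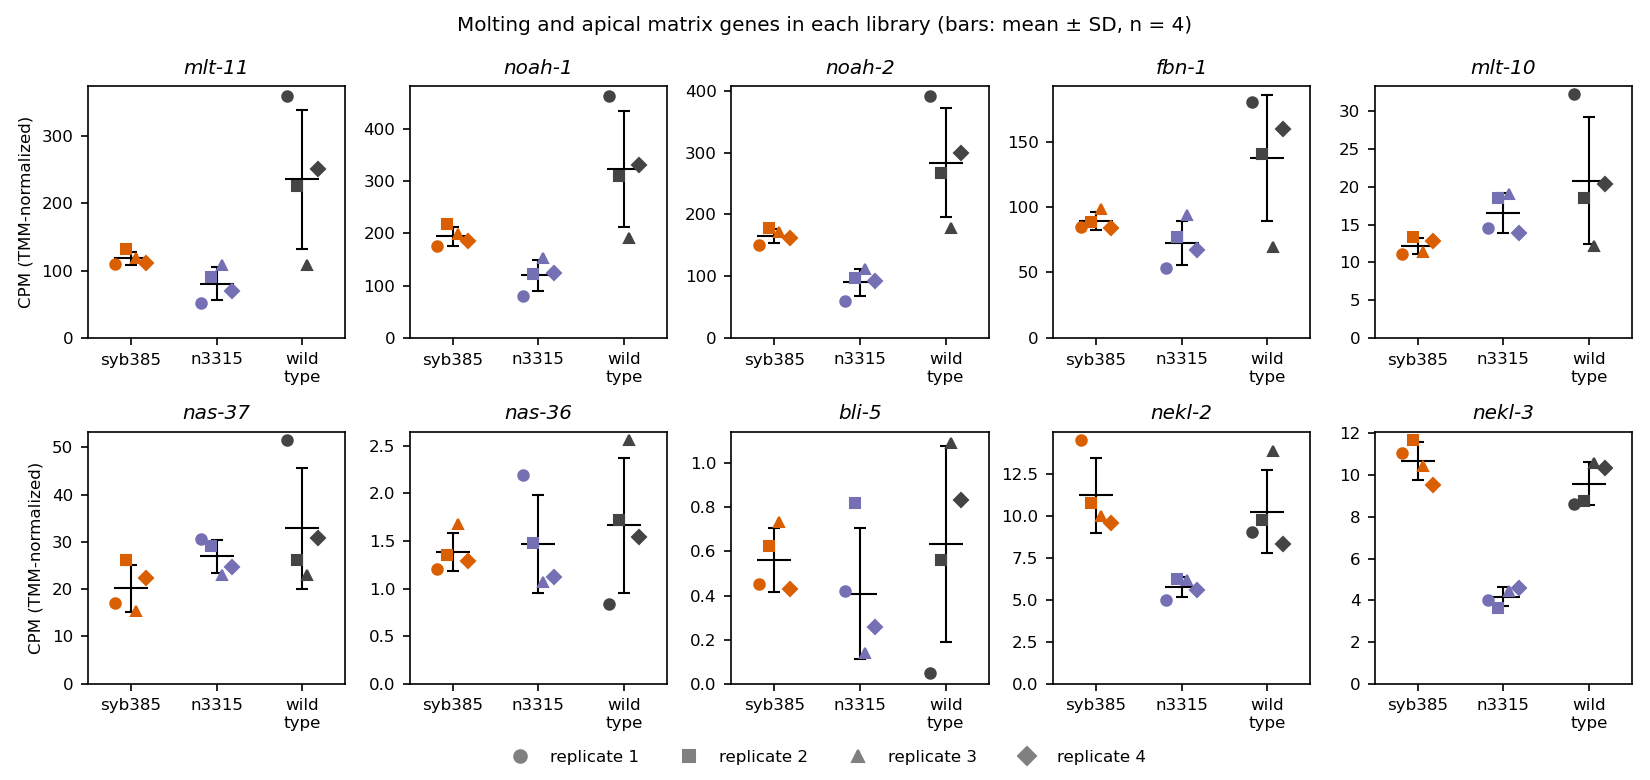
Level of each of the 10 genes in CPM after TMM normalization, in 12 libraries, with replicate numbers as symbols, and the mean ± SD of each genotype as black bars. The y axes are linear, start at 0 and differ between panels. For mlt-11, noah-1, noah-2 and fbn-1, wild type replicate 1 is the highest library of all and wild type replicate 3 the lowest of its genotype, while nekl-3 is lower in every crh-1(n3315) library than in any other.

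Of the 10 genes, 5 were lower in circ-crh-1(syb385) than in wild type (mlt-11, noah-1, noah-2, mlt-10 and nas-37) and none was higher, at an adjusted p under 0.05 in edgeR's quasi-likelihood test, where 8.88% of all tested genes passed with a lower and 7.42% with a higher level. None of the 10 passed with a change of at least 2-fold, against 4.48% of all genes that did so with a lower level. At an unadjusted p under 0.05, 6 of the 10 were lower and none of those reached 2-fold, and DESeq2 also called 6 lower and none at 2-fold. In crh-1(n3315), 6 were lower than in wild type (mlt-11, noah-1, noah-2, fbn-1, nekl-2 and nekl-3) and none was higher, where 21.7% of all genes passed with a lower and 20.3% with a higher level. Of these, 4 (mlt-11, noah-1, noah-2 and nekl-3) passed with at least a 2-fold change, against 11.2% of all genes that did so with a lower level. The median log2 fold change of the 10 was -0.66 in circ-crh-1(syb385) and -0.88 in crh-1(n3315), beside -0.05 and -0.04 over all genes tested. Both comparisons use the same 4 wild-type libraries.

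Between the mutants, 4 genes were lower in crh-1(n3315) than in circ-crh-1(syb385) (noah-1, noah-2, nekl-2 and nekl-3) and none was higher, where 7.42% of all genes passed with a lower and 10.6% with a higher level. Of the 4, only nekl-3 passed with a 2-fold change, against 2.39% of all genes that did so with a lower level. The median log2 fold change of the 10 was -0.51 in this comparison, beside -0.02 over all genes. These tests use a spread estimated from all 12 libraries, wild type included. With only the 2 mutants in the fit, 7 of the 10 passed, where 5181 of 13735 tested genes passed in either direction. The added calls were mlt-11 and fbn-1, both lower, and mlt-10, which was higher in crh-1(n3315).

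**Figure D2:**
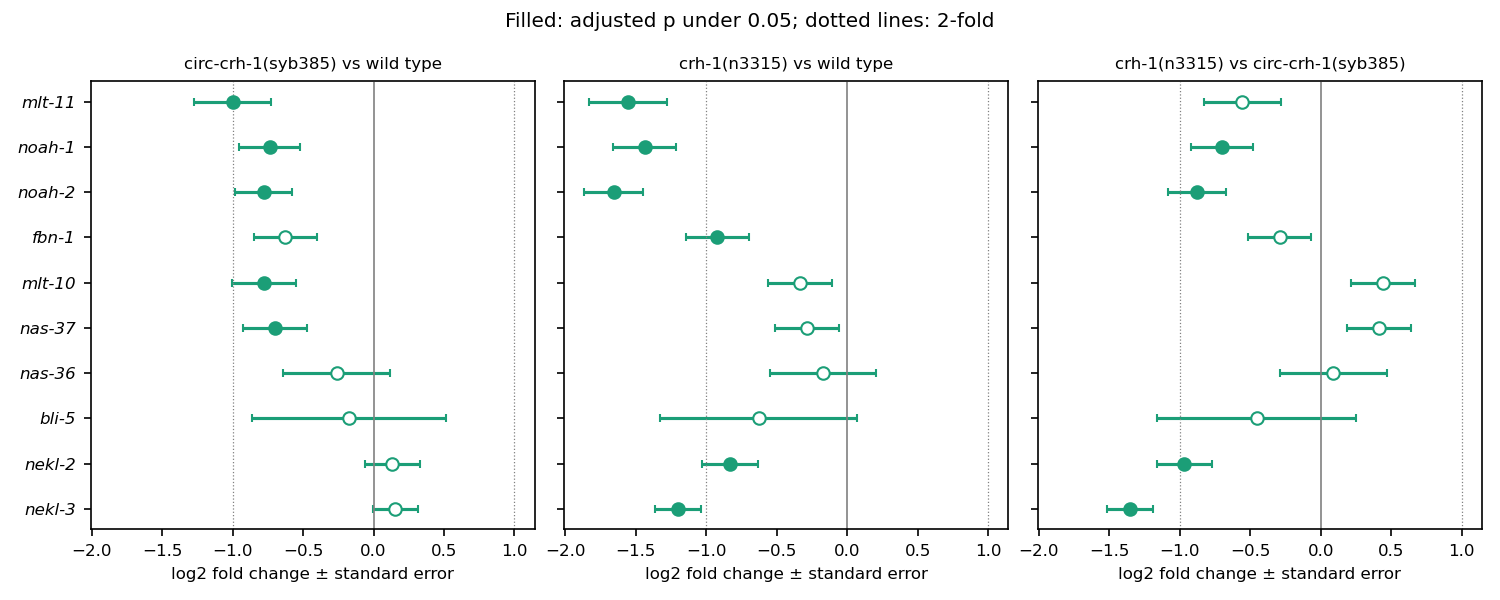
Log2 fold change ± standard error of each gene in the 3 comparisons (edgeR, n = 4 libraries per genotype). Filled points have an adjusted p under 0.05 and dotted lines mark 2-fold. Both kinase genes lie near 0 in circ-crh-1(syb385) against wild type and below 0 in the comparisons of crh-1(n3315), while mlt-10 and nas-37 lie farther below 0 in circ-crh-1(syb385) than in crh-1(n3315).

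The proteases were nas-36 and nas-37, which encode secreted zinc metalloproteases of the astacin family that are needed to shed the old cuticle. The WBcel235 annotation places nas-36 (WBGene00003552) on the + strand of chromosome I, at 7527307 to 7531699, and nas-37 (WBGene00003553) on the - strand of chromosome X, at 9944848 to 9949060. Levels of nas-37 were 17.1, 26.1, 15.3 and 22.3 CPM in circ-crh-1(syb385), 30.7, 29.1, 23.1 and 24.8 CPM in crh-1(n3315), and 51.4, 26.1, 23.04 and 30.8 CPM in wild type. Wild type replicate 1 stood above every other library and replicate 4 just above both mutants, while replicate 2 lay within both mutant ranges and replicate 3 within that of circ-crh-1(syb385) and just below that of crh-1(n3315). The log2 fold change of nas-37 was -0.70 (SE 0.23, adjusted p = 0.048) in circ-crh-1(syb385) and -0.29 (SE 0.23, adjusted p = 0.33) in crh-1(n3315) against wild type. Between the mutants it was 0.41 (SE 0.23, adjusted p = 0.22), so the mutants were not shown to differ. Without wild type replicate 1, the value of circ-crh-1(syb385) was -0.39 (adjusted p = 0.17) and that of crh-1(n3315) was 0.015 (adjusted p = 0.96). The call in circ-crh-1(syb385) was also lost without wild type replicate 4, without circ-crh-1(syb385) replicate 1, 3 or 4, and without any 1 of the crh-1(n3315) libraries, which enter the shared estimate of the spread (adjusted p between 0.059 and 0.13). It was lost too with DESeq2's size factors in edgeR (adjusted p = 0.054) and with only 2 genotypes in the fit (adjusted p = 0.10).

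Exons of nas-37 share 28 nt with C17G1.5 on the other strand, and how the counting treated strand is not given in the sources used here. C17G1.5 averaged 6.97 ± 0.75 CPM in circ-crh-1(syb385), 3.75 ± 0.47 in crh-1(n3315) and 8.84 ± 1.52 in wild type, and its part in the nas-37 values was not tested. For nas-36, counts were 24 to 32 per library in circ-crh-1(syb385), 22 to 52 in crh-1(n3315) and 17 to 47 in wild type. These correspond to means of 1.39 ± 0.20, 1.47 ± 0.52 and 1.66 ± 0.71 CPM in that order. The groups overlapped and no comparison passed the test (adjusted p between 0.70 and 0.90, SE of the log2 fold change 0.38 in each).

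The inhibitors were mlt-11 and bli-5, whose products contain Kunitz-type domains that block serine proteases. The gene mlt-11 (WBGene00012186, chromosome V, 20667211 to 20678540, + strand) has the longest exonic length of the 10, with 9793 nt in 16 exon intervals. Its levels were 109.8, 131.5, 118.7 and 111.5 CPM in circ-crh-1(syb385), 52.0, 89.7, 108.8 and 70.1 CPM in crh-1(n3315), and 358.5, 225.3, 107.5 and 250.5 CPM in wild type. Replicates 1, 2 and 4 of wild type lay above every mutant library, and wild type replicate 3 lay below the circ-crh-1(syb385) range and within that of crh-1(n3315). Against wild type its log2 fold change was -0.999 (SE 0.27, adjusted p = 0.020) in circ-crh-1(syb385), and the adjusted p was 0.071 without wild type replicate 1, 0.064 without circ-crh-1(syb385) replicate 1 and 0.062 without circ-crh-1(syb385) replicate 4. In crh-1(n3315) it was -1.56 (SE 0.28, adjusted p = 4.43e-04), a 2.94-fold lower level. All crh-1(n3315) libraries were below all circ-crh-1(syb385) libraries, with a log2 fold change of -0.56 (SE 0.27) and an adjusted p of 0.17, or of 0.026 without wild type replicate 3. With only the 2 mutants in the fit this log2 fold change was -0.59 (adjusted p = 0.0052).

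Exons of mlt-11 share 90 and 112 nt with the noncoding genes W01F3.4 and W01F3.5 on the same strand, which had 0 counts in every library. The second inhibitor, bli-5 (WBGene00000255, chromosome III, 13427723 to 13429713, - strand), is needed for a normal cuticle, which blisters in its mutants. It had 9 to 14 counts per library in circ-crh-1(syb385), 3 to 16 in crh-1(n3315) and 1 to 20 in wild type. The groups overlapped, with adjusted p values of 0.90 and 0.50 and SEs of 0.69 and 0.70 for circ-crh-1(syb385) and crh-1(n3315) against wild type.

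The gene mlt-10 (WBGene00015646, chromosome II, 546705 to 552026, + strand) encodes a secreted nematode protein with proline-rich repeats that is made at each molt. Its levels were 11.1, 13.3, 11.4 and 12.8 CPM in circ-crh-1(syb385), 14.5, 18.6, 19.1 and 13.9 CPM in crh-1(n3315), and 32.3, 18.5, 12.2 and 20.4 CPM in wild type. The circ-crh-1(syb385) libraries were all below the crh-1(n3315) libraries and overlapped with wild type only through wild type replicate 3. Against wild type the log2 fold change was -0.78 (SE 0.23, adjusted p = 0.030) in circ-crh-1(syb385) and -0.34 (SE 0.23, adjusted p = 0.25) in crh-1(n3315). Without wild type replicate 3, the value of crh-1(n3315) was -0.52 with an adjusted p of 0.029, and without wild type replicate 1 that of circ-crh-1(syb385) was -0.48 with an adjusted p of 0.11. The call in circ-crh-1(syb385) was also lost without wild type replicate 4 or any 1 of its own libraries (adjusted p between 0.054 and 0.084), and with only 2 genotypes in the fit (adjusted p = 0.065). Between the mutants the log2 fold change was 0.44 (SE 0.23, adjusted p = 0.19). It was 0.41 (adjusted p = 0.027) with only the 2 mutants in the fit. Exons of mlt-10 share up to 109 nt with lips-7 and 16 nt with T27A1.3 on the same strand, which had at most 21 and 75 counts in any library.

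The matrix proteins were noah-1, noah-2 and fbn-1. Both noah genes encode zona pellucida domain proteins related to Drosophila NompA, and they are components of the embryonic and larval matrix outside the epidermis. The product of fbn-1 is a large secreted protein related to fibrillin that helps the epidermis to withstand mechanical strain and takes part in the embryonic matrix. The annotation places noah-1 (WBGene00016422) at chromosome I, 5874433 to 5878954, - strand, noah-2 (WBGene00009926) at chromosome IV, 14091254 to 14096624, + strand, and fbn-1 (WBGene00022816) at chromosome III, 7625376 to 7641053, + strand.

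Levels of noah-2 were 151, 177, 172 and 162 CPM in circ-crh-1(syb385), 59.8, 97.2, 111 and 92.0 CPM in crh-1(n3315), and 391, 266, 178 and 299 CPM in wild type. This was the only one of the 10 whose circ-crh-1(syb385) libraries all lay below all wild-type libraries, though the highest of them (177 CPM) and wild type replicate 3 (178 CPM) were nearly equal. Of all tested genes, 8.95% were lower without overlap in that comparison. The log2 fold change of noah-2 against wild type was -0.78 (SE 0.20, adjusted p = 0.016) in circ-crh-1(syb385), with an adjusted p of 0.054 without wild type replicate 1 and 0.056 without circ-crh-1(syb385) replicate 1. In crh-1(n3315) it was -1.66 (SE 0.21, adjusted p = 2.52e-05), a 3.15-fold lower level and the largest change of the 10 genes. The crh-1(n3315) libraries were also all below those of circ-crh-1(syb385), with a log2 fold change of -0.88 (SE 0.20, adjusted p = 0.0096).

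Levels of noah-1 were 176, 218, 198 and 185 CPM in circ-crh-1(syb385), 79.4, 123, 152 and 124 CPM in crh-1(n3315), and 463, 309, 192 and 332 CPM in wild type. The same order of genotypes held as for noah-2, but wild type replicate 3 lay inside the circ-crh-1(syb385) range. For noah-1, the log2 fold change against wild type was -0.74 (SE 0.22, adjusted p = 0.031) in circ-crh-1(syb385) and -1.44 (SE 0.22, adjusted p = 1.41e-04) in crh-1(n3315). In circ-crh-1(syb385) the adjusted p was 0.11 without wild type replicate 1, 0.062 without wild type replicate 4 and 0.052 to 0.091 without any 1 of the circ-crh-1(syb385) libraries. Between the mutants the log2 fold change was -0.70 (SE 0.22, adjusted p = 0.037), and this last call was lost on leaving out any one of 7 of the 8 mutant libraries (all but crh-1(n3315) replicate 3), where the log2 fold change ran between -0.74 and -0.55 and the adjusted p between 0.061 and 0.11.

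Levels of fbn-1 were 85.0, 88.9, 98.6 and 83.8 CPM in circ-crh-1(syb385), 53.1, 76.7, 93.6 and 67.5 CPM in crh-1(n3315), and 180, 141, 69.3 and 160 CPM in wild type. Here wild type replicate 3 lay below every circ-crh-1(syb385) library and inside the crh-1(n3315) range. The log2 fold change of fbn-1 against wild type was -0.63 (SE 0.22, adjusted p = 0.069) in circ-crh-1(syb385) and -0.92 (SE 0.23, adjusted p = 0.0042) in crh-1(n3315). Without wild type replicate 3 the first was -0.85 (adjusted p = 3.32e-04), and DESeq2 gave -0.61 (adjusted p = 0.046). Between the mutants fbn-1 had a log2 fold change of -0.29 (SE 0.22, adjusted p = 0.39). In a fit of the 2 mutants alone it was -0.33 (adjusted p = 0.045). Exons of fbn-1 share 20 nt with upp-1 on the other strand, whose mean lay between 76.02 and 85.84 CPM in the 3 genotypes.

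The kinases were nekl-2 and nekl-3, NIMA-related kinases that act in the epidermis, where they are needed for endocytosis and for shedding of the cuticle. The annotation places nekl-2 (WBGene00022631) at chromosome I, 6663143 to 6665160, + strand, and nekl-3 (WBGene00008956) at chromosome X, 12389594 to 12391474, - strand. Levels of nekl-3 were 11.04, 11.66, 10.43 and 9.534 CPM in circ-crh-1(syb385), 4.001, 3.626, 4.467 and 4.598 CPM in crh-1(n3315), and 8.627, 8.767, 10.57 and 10.35 CPM in wild type. All crh-1(n3315) libraries lay below all other libraries, which overlapped among themselves. The log2 fold change of nekl-3 in crh-1(n3315) was -1.20 (SE 0.16, adjusted p = 5.2e-05) against wild type and -1.35 (SE 0.16, adjusted p = 1.72e-04) against circ-crh-1(syb385). In circ-crh-1(syb385) against wild type it was 0.16 (SE 0.16, adjusted p = 0.56).

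Levels of nekl-2 were 14.5, 10.8, 10.0 and 9.58 CPM in circ-crh-1(syb385), 4.97, 6.23, 6.19 and 5.57 CPM in crh-1(n3315), and 9.02, 9.75, 13.8 and 8.35 CPM in wild type. As for nekl-3, the crh-1(n3315) libraries were the lowest 4 of the 12. The log2 fold change of nekl-2 in crh-1(n3315) was -0.83 (SE 0.20, adjusted p = 0.0035) against wild type and -0.97 (SE 0.20, adjusted p = 0.0054) against circ-crh-1(syb385), and in circ-crh-1(syb385) against wild type it was 0.13 (SE 0.19, adjusted p = 0.70). Exons of nekl-2 share up to 84 nt with ZC581.9 on the other strand, which averaged 4.05 ± 1.10 CPM in circ-crh-1(syb385), 3.01 ± 0.64 in crh-1(n3315) and 3.31 ± 0.54 in wild type, and its part in the nekl-2 values was not tested.

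Without overlap between libraries, 4 genes were lower in crh-1(n3315) than in wild type (noah-1, noah-2, nekl-2 and nekl-3), where 18.2% of all tested genes were lower in this way. Between crh-1(n3315) and circ-crh-1(syb385), 5 genes were lower without overlap (these 4 and mlt-11), against 14.3% of all genes, and mlt-10 was higher without overlap, against 19.2%.

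**Figure D3:**
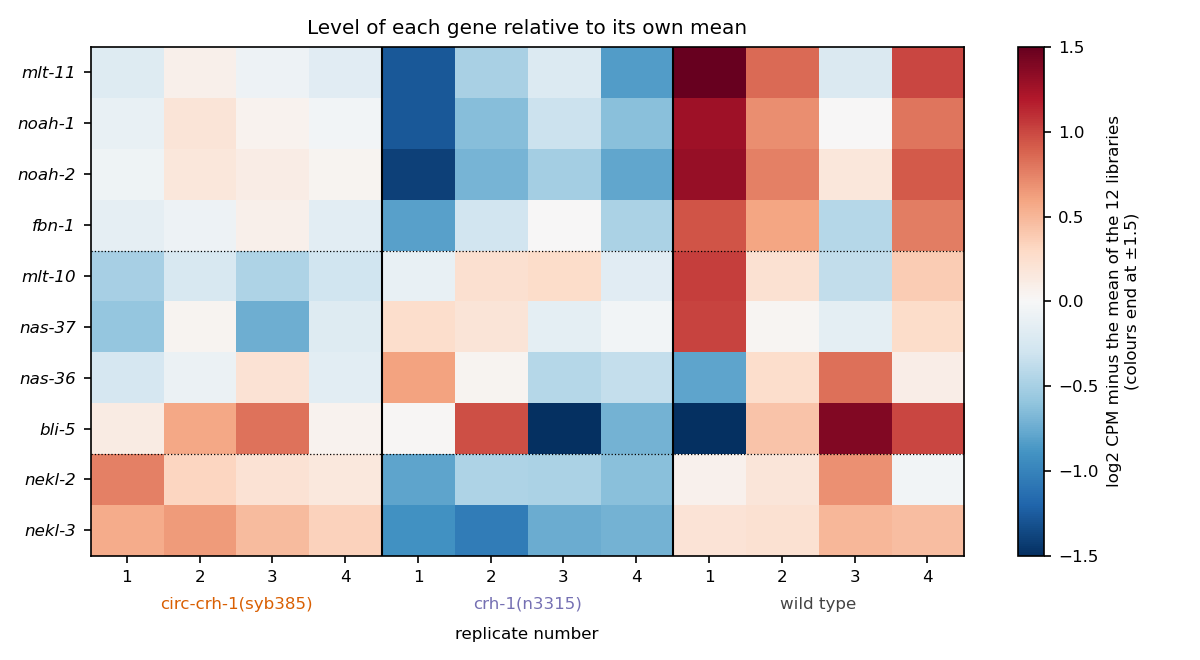
Log2 CPM of each gene in each of the 12 libraries minus that gene's mean over all 12, with red above and blue below the mean. Solid lines separate the genotypes and dotted lines separate mlt-11, noah-1, noah-2 and fbn-1 (top), mlt-10, nas-37, nas-36 and bli-5 (middle) and both kinase genes (bottom). Replicates 1, 2 and 4 of wild type are red for the top 4 genes and replicate 3 is pale or blue there, while both kinase genes are blue only in crh-1(n3315), apart from a pale nekl-2 in wild type replicate 4.

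Libraries of 1 genotype also differed among themselves. For mlt-11, noah-1, noah-2, fbn-1, mlt-10 and nas-37, in this order, the highest circ-crh-1(syb385) library held 1.20, 1.24, 1.18, 1.18, 1.19 and 1.71 times the lowest. In crh-1(n3315) these ratios were 2.09, 1.92, 1.86, 1.76, 1.37 and 1.33, and in wild type 3.33, 2.42, 2.20, 2.60, 2.65 and 2.23. Replicate 1 was the highest wild-type library and replicate 3 the lowest for all 6 of these genes. For nas-36 and bli-5 the order was reversed, with 0.83 and 0.049 CPM in wild type replicate 1 and 2.56 and 1.09 CPM in replicate 3. Without wild type replicate 1, none of the 10 genes passed edgeR's test in circ-crh-1(syb385) against wild type (5 at an unadjusted p under 0.05), and none passed without circ-crh-1(syb385) replicate 1 (6 at an unadjusted p under 0.05). Without wild type replicate 4, 2 passed, without circ-crh-1(syb385) replicates 2, 3 and 4 in turn 3, 2 and 1 passed, and without wild type replicate 3, 6 passed. The 6 calls in crh-1(n3315) against wild type, in contrast, were kept whichever single library was left out.

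Wild type replicate 3 also had the lowest summed level of several tissue markers among the wild-type libraries. Its 7 intestine markers summed to 19830 CPM, against 34810 to 38180 CPM in the other 3, its 6 muscle markers to 1359 against 2651 to 3085 CPM, and its 10 germline and oocyte markers to 3243 against 4141 to 4769 CPM. Its pharynx markers (166.2 against 304.2 to 407.2 CPM) and neuron markers (261.0 against 296.6 to 331.8 CPM) were lowest too. Its seam cell markers were lowest by a narrow margin (66.29 against 66.36 to 89.51 CPM). In contrast, its epidermis markers (1490 against 1388 to 1442 CPM) and sperm markers (32.85 against 26.76 to 31.21 CPM) summed highest. Its embryo markers (280.4 CPM) lay within the range of the others (268.2 to 306.2 CPM). Of 7 intestine markers, 4 were higher and 1 lower in circ-crh-1(syb385) (sum 43200 to 53160 CPM), 5 higher and 1 lower in crh-1(n3315) (49810 to 64670 CPM) and 19830 to 38180 CPM in wild type. Muscle markers summed to 2719 to 3844, 4326 to 5475 and 1359 to 3085 CPM in circ-crh-1(syb385), crh-1(n3315) and wild type, with 1 of 6 higher in circ-crh-1(syb385), and 4 higher and 1 lower in crh-1(n3315). Of 3 tested seam cell markers, 2 were lower in crh-1(n3315), and the summed level of all 4 in the table was 59.8 to 68.6, 61.6 to 74.8 and 66.3 to 89.5 CPM in circ-crh-1(syb385), crh-1(n3315) and wild type. Of the germline and oocyte markers, 8 of 10 were higher in circ-crh-1(syb385) than in wild type and all 10 were higher in crh-1(n3315), with summed levels of 5547 to 6424, 6997 to 7914 and 3243 to 4769 CPM in circ-crh-1(syb385), crh-1(n3315) and wild type. The 14 embryo markers, of which 12 were tested, summed to 258.5 to 291 CPM in circ-crh-1(syb385), 265 to 308 CPM in crh-1(n3315) and 268 to 306 CPM in wild type. In edgeR's test 0 of the 12 passed in circ-crh-1(syb385) (1 at an unadjusted p under 0.05, 0 in DESeq2). In crh-1(n3315) 2 were lower (16.7%, under the 21.7% of all tested genes). For all these marker counts, the shares of all tested genes were 8.88% lower and 7.42% higher in circ-crh-1(syb385), and 21.7% and 20.3% in crh-1(n3315). No marker of these lists was at 0 throughout a genotype, except 1 seam cell marker in crh-1(n3315). Of 5 pharynx markers, 0 passed in circ-crh-1(syb385) (2 lower at an unadjusted p under 0.05, 1 in DESeq2), and 3 were lower and 2 higher in crh-1(n3315). Of 7 neuron markers, 2 were lower and 0 higher in each mutant. Sperm markers summed to 24.2 to 50.8 CPM in circ-crh-1(syb385), 14.1 to 54.3 in crh-1(n3315) and 26.76 to 32.85 in wild type. Of the 8 tested, 0 passed in either mutant (1 higher at an unadjusted p under 0.05 in crh-1(n3315), 0 in DESeq2). The part of germline, sperm, embryo, intestine, muscle, pharynx, neuron or seam cell content in the results on the 10 genes was not tested.

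Markers of the epidermis, the tissue that makes most of these proteins, moved in both directions. Of 8 such markers, 3 were lower and 1 was higher in circ-crh-1(syb385), and 5 were lower and 2 higher in crh-1(n3315). The gene dpy-7, a cuticle collagen transcribed before each molt, averaged 35.1 ± 2.89 CPM in circ-crh-1(syb385), 10.1 ± 2.22 in crh-1(n3315) and 59.0 ± 6.50 in wild type, with log2 fold changes of -0.75 (adjusted p = 0.0026) and -2.55 (adjusted p = 3.56e-08) in the mutants. The adult collagen col-19 averaged 1512 ± 89.6 CPM in circ-crh-1(syb385), 1464 ± 203 in crh-1(n3315) and 650.1 ± 274 in wild type, with log2 fold changes of 1.22 (adjusted p = 0.0025) and 1.17 (adjusted p = 9.83e-04). The 8 markers summed to 1872 to 2070, 1634 to 1995 and 1388 to 1490 CPM in circ-crh-1(syb385), crh-1(n3315) and wild type. The summed level was thus higher in every mutant library than in any wild-type library, and most of it was col-19 in the mutants. The part of epidermal content in these results was not tested.

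Other genes of the same processes were examined as lists, beside the shares of all tested genes that passed with a lower and a higher level, 8.88% and 7.42% in circ-crh-1(syb385) and 21.7% and 20.3% in crh-1(n3315). A list of cuticlins and of zona pellucida domain proteins, the family to which both NOAH proteins belong, had 29 tested genes. Of these, 9 were lower (31.03%) and 0 higher in circ-crh-1(syb385), with a median log2 fold change of -0.75, and 20 were lower (69.0%) and 0 higher in crh-1(n3315), with a median of -1.56. In circ-crh-1(syb385) none was higher at an unadjusted p under 0.05 or in DESeq2 either, and the same was true in crh-1(n3315). Among them, cut-3 averaged 7.004 ± 2.767 CPM in circ-crh-1(syb385), 4.02 ± 2.30 in crh-1(n3315) and 31.5 ± 23.8 in wild type (log2 fold changes -2.17 and -2.97). The same held for cut-2, a component of the cuticle, with 20.3 ± 2.42, 10.44 ± 1.86 and 50.3 ± 31.2 CPM (log2 fold changes -1.31 and -2.27). At low levels, cut-5 (-1.74 and -2.96), cut-6 (-1.47 and -2.80) and cutl-17 (-1.93 and -2.12) were lower in both mutants, and cutl-8 was lower in crh-1(n3315) (-2.55). In edgeR's test of circ-crh-1(syb385) the adjusted p was 0.041 for cut-5, 0.0255 for cut-6 and 0.0256 for cutl-17.

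Of 14 other apical matrix proteins, 11 were lower (78.6%) and 2 higher (14.3%) in circ-crh-1(syb385), and 10 were lower (71.4%) and 2 higher (14.3%) in crh-1(n3315), with median log2 fold changes of -0.87 and -1.29. The lower genes included the secreted lipocalins, which act in the matrix that lines epithelial tubes and the cuticle. For lpr-6, levels were 15.3 ± 2.67 CPM in circ-crh-1(syb385), 6.11 ± 1.76 in crh-1(n3315) and 35.7 ± 10.1 in wild type, with log2 fold changes of -1.22 (adjusted p = 0.0023) and -2.55 (adjusted p = 2.71e-06). Its relatives lpr-1 (-1.28 and -2.77), lpr-4 (-1.23 and -2.56), lpr-5 (-1.03 and -2.31) and lpr-7 (-1.32 and -2.02) were lower in both mutants as well. The gene mup-4, whose product is a transmembrane protein that fastens the epidermis to the cuticle, went the other way, with 171 ± 15.1, 180 ± 7.87 and 67.1 ± 16.3 CPM in circ-crh-1(syb385), crh-1(n3315) and wild type (log2 fold changes 1.35 and 1.43).

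**Figure D4:**
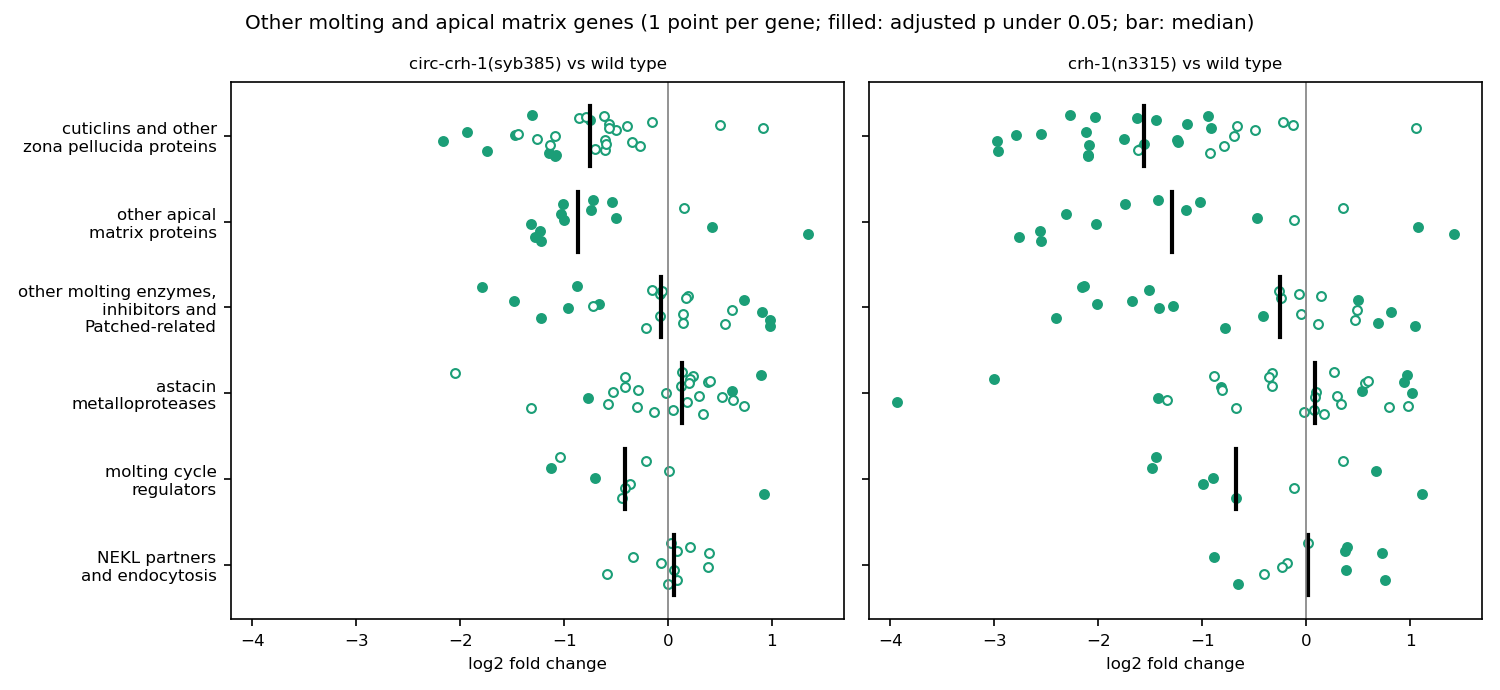
Log2 fold change of each tested gene in 6 lists of molting and apical matrix genes, in circ-crh-1(syb385) against wild type (left) and crh-1(n3315) against wild type (right). Filled points have an adjusted p under 0.05 and bars mark the median of a list. This median is -0.75 and -1.56 for cuticlins and zona pellucida proteins, and 0.06 and 0.01 for NEKL partners together with endocytic proteins.

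Among 22 other molting enzymes, inhibitors and Patched-related proteins, 6 were lower (27.3%) and 4 higher (18.2%) in circ-crh-1(syb385), and 10 were lower (45.5%) and 4 higher (18.2%) in crh-1(n3315), with medians of -0.07 and -0.25. The hedgehog-related gene qua-1 averaged 5.44 ± 0.79, 4.75 ± 1.45 and 15.2 ± 3.40 CPM in circ-crh-1(syb385), crh-1(n3315) and wild type (log2 fold changes -1.48 and -1.68, adjusted p = 6.26e-04 and 6.59e-05). Both ptr-4, which encodes a Patched-related protein required for molting (-1.22 and -2.41), and mlt-9 (-1.79 and -2.16) were lower in each mutant. The genes acn-1, whose product resembles angiotensin-converting enzyme (-0.88 and -2.14), and mlt-8 (-0.67 and -2.01) were lower in both, past 2-fold only in crh-1(n3315). In edgeR's test of circ-crh-1(syb385) the adjusted p was 0.018 for acn-1 and 0.032 for mlt-8.

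Of 27 tested astacin metalloproteases, the family of nas-36 and nas-37, 1 was lower (3.70%) and 2 were higher (7.41%) in circ-crh-1(syb385), and 4 were lower and 4 higher (14.8% each) in crh-1(n3315), all at or under the shares of all genes. The medians were 0.13 and 0.08. The gene hch-1, whose protease lets the embryo hatch, averaged 46.3 ± 4.72, 29.4 ± 6.89 and 78.7 ± 27.2 CPM in circ-crh-1(syb385), crh-1(n3315) and wild type (log2 fold changes -0.77 and -1.42). For toh-1 the levels were 13.5 ± 2.83, 14.2 ± 1.89 and 7.25 ± 1.05 CPM (log2 fold changes 0.90 and 0.97), and nas-32 was higher in crh-1(n3315) (log2 fold change 1.02). Few reads lay behind nas-17, with 3 counts in all crh-1(n3315) libraries and 52 in wild type (ratio 0.058, exact binomial 95% interval 0.012 to 0.18). The same held for nas-24, with 7 and 60 counts (ratio 0.12, interval 0.045 to 0.26). These intervals cover counting error only.

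Of 9 transcriptional regulators of the molting cycle, 2 were lower (22.2%) and 1 higher (11.1%) in circ-crh-1(syb385), and 5 were lower (55.6%) and 2 higher (22.2%) in crh-1(n3315), with medians of -0.42 and -0.68. The grainyhead transcription factor gene grh-1 averaged 9.43 ± 0.69, 7.38 ± 1.98 and 20.6 ± 10.1 CPM in circ-crh-1(syb385), crh-1(n3315) and wild type (log2 fold changes -1.13 and -1.48). The zinc finger gene bed-3 had log2 fold changes of -1.04 (adjusted p = 0.075) and -1.44 (adjusted p = 0.0072). The gene lin-29, which encodes a zinc finger factor that ends the molting cycle at the passage to adulthood, averaged 5.58 ± 0.34, 6.37 ± 0.67 and 2.94 ± 1.04 CPM (log2 fold changes 0.93 and 1.12) and was higher in every library of both mutants than in any wild-type library.

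The last list held 11 partners of the NEKL kinases and endocytic proteins. In circ-crh-1(syb385) 0 passed in edgeR's test and 0 in DESeq2 (2 at an unadjusted p under 0.05), and in crh-1(n3315) 5 were higher (45.5%) and 2 lower (18.2%, near the share of all genes), none by 2-fold. The 2 lower ones were mlt-2 (log2 fold change -0.89, adjusted p = 0.0073) and mlt-3 (-0.655, adjusted p = 0.042). These 2 became 1 without wild type replicate 2, circ-crh-1(syb385) replicate 3 or 4, or crh-1(n3315) replicate 2, 3 or 4. In circ-crh-1(syb385) the smallest p values belonged to lrp-1, the megalin receptor needed for molting (log2 fold change -0.59, adjusted p = 0.085), and the clathrin heavy chain gene chc-1 (0.39, adjusted p = 0.15). In crh-1(n3315) they belonged to the endocytic adaptor gene dab-1, at 342 ± 28.5 CPM against 202 ± 49.6 in wild type (log2 fold change 0.76, adjusted p = 0.0011), and again chc-1, at 684 ± 35.3 against 412 ± 124 CPM (log2 fold change 0.73, adjusted p = 0.0041).

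In circ-crh-1(syb385) the counts of these lists also rested on the model and on single libraries. With only 2 genotypes in the fit, the 9 lower cuticlin and zona pellucida genes became 4, and with a replicate block 3. The 11 lower other matrix genes became 7 and 6 in these fits, and the 2 lower regulators became 1 in each. The call of lin-29 was lost with only 2 genotypes (adjusted p = 0.067). The 9 lower cuticlin and zona pellucida genes became 3, 18 and 5 without wild type replicates 1, 3 and 4, and 2, 3 and 3 without circ-crh-1(syb385) replicates 1, 2 and 4. The 11 other matrix genes became 4 and 6 without wild type replicates 1 and 4, 2, 5, 7 and 5 without circ-crh-1(syb385) replicates 1 to 4 and 7 without crh-1(n3315) replicate 2 or 4, and the 2 higher ones became 1 without any 1 circ-crh-1(syb385) library. The 6 lower molting enzymes became 3 without wild type replicate 1 and 2 and 3 without circ-crh-1(syb385) replicates 1 and 4. Of the 9 regulators, the 2 lower ones became 0 without wild type replicate 1, 6 without wild type replicate 3 and 1 without wild type replicate 2 or 4 or any 1 of the circ-crh-1(syb385) replicates 1, 2 and 4. The 1 higher regulator, lin-29, became 0 without circ-crh-1(syb385) replicate 2 (adjusted p = 0.053). The 1 lower astacin, hch-1, lost its call without wild type replicate 1 or 4 or circ-crh-1(syb385) replicate 1, 3 or 4, and 2 astacins were lower without wild type replicate 3. The 2 higher astacins became 1 without wild type replicate 4 or circ-crh-1(syb385) replicate 1, 2 or 4. In crh-1(n3315) the 2 higher regulators became 1 without crh-1(n3315) replicate 1, 2 or 3. Setting aside the 2-fold threshold inside the test, every alternative kept the calls of qua-1, ptr-4, cut-3, lpr-6, toh-1 and mup-4 in circ-crh-1(syb385). Of these 19 alternatives, 9 lost the call of cut-5 in circ-crh-1(syb385), 7 each those of cutl-17 and mlt-8, and 6 that of cut-6. The call of lpr-7 was lost in 5, that of acn-1 in 4, and those of grh-1, mlt-9, cut-2, lpr-1, lpr-4 and lpr-5 in 1 each. The same alternatives, wherever a gene was tested, kept the calls of all genes of these lists named above as lower or higher in crh-1(n3315). This leaves aside mlt-2 and mlt-3.

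The genes most like each member over the 12 libraries were sought among 9203 genes with a mean of at least 5 CPM, by the root mean square distance between log2 CPM profiles scaled to a mean of 0 and an SD of 1. For noah-2 these were sqt-3, a cuticle collagen, at a distance of 0.092, and F13E9.11 at 0.095. For noah-1 they were hbl-1, a zinc finger factor of developmental timing (0.11), and noah-2 itself (0.11), and for mlt-11 dlg-1, a scaffold protein of epithelial junctions (0.11), and again hbl-1 (0.12). The profile of fbn-1 lay nearest tir-1 (0.15) and dlg-1 (0.19). For mlt-10 the nearest were C32E12.4 and pqn-53 (0.27 each), for nas-37 ZK930.2 and cpna-5 (0.37 and 0.39), for nekl-2 F42H10.3 and ZK512.7 (0.32 and 0.33), and for nekl-3 F59B1.2 and H41C03.1 (0.28 and 0.29). The profiles of nas-36 and bli-5, at few reads, had no gene nearer than 0.58, with acdh-1 and ZK593.3 nearest nas-36 and cyp-33C9 and acdh-1 nearest bli-5. All profiles share the same 12 libraries and their normalization.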

How the data were processed

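RNA was extracted from whole day-1 adults, and 12 poly(A)-selected libraries were sequenced, 4 for each of circ-crh-1(syb385), crh-1(n3315) and wild type. Per the methods and the submitters' processing notes, the authors made reads with bcl2fastq v2.19, used STAR v2.7.5a for alignment to WBcel235, and took exon counts with featureCounts v1.5.0. The deposited values are raw counts for every gene and library, which the authors neither normalized nor pooled. The annotation release, strand setting and treatment of multiply mapped reads are not given in the sources used here. The authors ran DESeq2 v1.26.0, whose output was not used.

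Counts were analysed in R v4.3.3 with edgeR v4.0.16. Genes were kept by filterByExpr (minimum count 10, minimum total 15), normalized by TMM and fitted with the quasi-likelihood test over the 12 libraries, with no term other than genotype, and a prior count of 0.125 for fold changes. P-values were adjusted by Benjamini-Hochberg over the 14511 tested genes, and fold changes are the first-named genotype over the second. The script was tested on simulated data. Depth was 18172086 to 21404887 counts in circ-crh-1(syb385), 20296003 to 25369267 in crh-1(n3315) and 16348586 to 22174508 in wild type. Replicates are described as independent samples. Libraries of a genotype differed by more than sampling noise, so each was counted once.

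The 10 genes and all lists were chosen with earlier results of these data known, and support nothing beyond the values given. From each list, genes past an adjusted p of 0.05 and 2-fold in a mutant against wild type were named, at most 5 per comparison by size, or else the 2 with the smallest p. For each of the 10 genes the 2 nearest profiles were named. Values of lpr-5, acn-1, mlt-8, bed-3, lrp-1 and others named in one mutant are given in both, and dpy-7 and col-19 were chosen after their values were seen. The genes mlt-2 and mlt-3 were named as the lower ones of their list. Alternatives tried were other size factors, no filter, DESeq2 v1.42.0, fits on 2 genotypes, a replicate block, a 2-fold threshold inside the test and leaving out each library. Leaving out wild type replicates 1 and 3 together was chosen after seeing the data. Sequences were not used here.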

Additional observations from a re-analysis of the deposited data

How the results depend on the processing

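Against wild type, the 6 lower genes in crh-1(n3315) were called under every alternative except the 2-fold threshold inside the test. There were 6 to 7 calls, and 4 to 5 at 2-fold, when single libraries were left out. With the 2-fold threshold inside the test, 1 of the 4 passed. In circ-crh-1(syb385) the 5 calls became 3 with only 2 genotypes in the fit, which lost mlt-10 (adjusted p = 0.065) and nas-37 (0.10), 4 with DESeq2's size factors, which lost nas-37 (0.054), and ranged between 0 and 6 when single libraries were left out, and the 0 calls at 2-fold became 1 with upper-quartile factors and 0 to 1 without single libraries. Leaving out wild type replicates 1 and 3 together, nas-37 was no longer called (-0.47, adjusted p = 0.084) and fbn-1 was (-0.72, adjusted p = 0.0028). Between the mutants the 4 calls became 7 with only 2 genotypes and 3 to 5 without single libraries, and the 1 call at 2-fold became 2 with upper-quartile factors, 2 with only 2 genotypes, 0 with the threshold inside the test and 1 to 2 without single libraries. The cause was not tested.

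Deviations of same-numbered libraries correlated only between -0.079 and 0.116. Whether libraries with the same number were grown or prepared together is not given in the sources used here, and these correlations cannot settle it. With the replicate block, 1 gene was called in circ-crh-1(syb385), noah-2, and noah-1 between the mutants was lost (adjusted p = 0.073).

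Signs turned only in values that passed no test, on leaving out single libraries. The log2 fold change of nas-36 then ran between -0.479 and 0.018 in circ-crh-1(syb385) and between -0.432 and 0.105 in crh-1(n3315) against wild type, and between -0.175 and 0.222 between the mutants. In circ-crh-1(syb385) that of bli-5 ran between -0.553 and 0.203 and that of nekl-2 between -0.012 and 0.313, and in crh-1(n3315) that of nas-37 between -0.42 and 0.015. Among the 10 genes, bli-5 and nas-36 had the fewest counts, at most 20 and 52 in a library, and the widest standard errors, at most 0.71 and 0.38.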
